A study of Mus musculus with 40 samples.

Results

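The genes described here are the nuclear genes of oxidative phosphorylation, taken by symbol (Nduf with a following A, B, C, S or V and a digit, Sdha to Sdhd, Uqcr, Cox4 to Cox8, and Atp5). The rule found 84 of the 24062 genes in the count table. By known subunit membership, 35 belong to complex I, 4 to complex II, 8 to complex III, 19 to complex IV (Ndufa4 and Ndufa4l2 included) and 15 to complex V. The remaining 3 (Atp5s, Atp5sl and Cox7a2l) carry a matching name but are not counted as subunits of a complex.

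Oxidative phosphorylation takes place in the inner membrane of the mitochondrion. Complexes I and II feed electrons from NADH and succinate into the chain, complexes III and IV pass them by way of cytochrome c to oxygen, and complex V (ATP synthase) uses the resulting proton gradient to make ATP. Complexes I, III, IV and V also hold subunits encoded by mitochondrial DNA, and none of the 13 mitochondrial protein genes has a row in the table, so only the nuclear share of each complex is described.

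RNA-Seq was performed on primary mouse embryonic fibroblasts (MEFs) at 13.5 days post coitum and passage 3, of a mixed C57BL/6J and 129P2OlaHsd background, of WT, Het and KO genotype at Sall2, which encodes a zinc finger transcription factor. Cells were untreated (control) or treated with 1 µM doxorubicin for 16 h, a drug that blocks topoisomerase II and damages DNA. There was 1 WT and 1 Het embryo in each treatment, so these genotypes have no replicate of their own, and there were 3 KO embryos in control. The KO 3 library with doxorubicin held the same count as KO 2 for all 24062 genes and was left out, which leaves 9 libraries and 2 KO libraries with doxorubicin. Which of these embryos the shared counts belong to could not be worked out. They are used as KO 2, and every pairing of treated with untreated KO 2 below rests on that choice. Counts of the targeted gene were lower in Het and KO than in WT within each treatment, and it was still counted in KO. Untreated libraries held 388, 432 and 424 counts of Sall2 in the KO embryos, against 756 for WT and 587 for Het. With doxorubicin the counts were 76 and 81 for KO 1 and KO 2, against 188 for WT and 164 for Het. These counts are not scaled to library totals, which with doxorubicin were 21350978 for WT and 15560728 for Het. They therefore do not order Het against WT. Counts of a whole gene do not show which part of it was read, so the remaining Sall2 counts do not test the deletion.

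Total counts per library lay between 15560728 and 24122414. CPM is the usual unit of counts scaled to the library total. Before TMM factors, 3 counts correspond to 0.124 to 0.193 CPM. The CPM values below have TMM factors applied. The libraries of Het control, KO 3 control and Het doxorubicin stood apart from the other 6. Across 16656 genes, log2 CPM of Het control and KO 3 control correlated with those of WT, KO 1 and KO 2 control at a Pearson r of 0.94 to 0.95, against 0.99 among WT, KO 1 and KO 2 and 0.98 between Het and KO 3. The 10 fibroblast markers examined (Col1a1, Col1a2, Vim and others) summed to 34433 to 53585 CPM in the 6 libraries and to 10948 to 14058 CPM in the 3 that stood apart, none of them at 0 in any library. The 10 interferon-stimulated genes summed to 19.7 to 303 CPM against 1373 to 2280 CPM, with only Mx1 at 0, in WT and KO 2 control. The 9 macrophage markers found in the table summed to 73.8 to 204 CPM against 422 to 634 CPM, with none at 0. Lists of 10 muscle and 6 neural markers were compared with WT of the same treatment by median log2 ratio. In Het control, KO 3 control and Het doxorubicin it was 3.10, 1.65 and 2.05 for muscle and 2.85, 0.94 and 1.54 for neural markers. In the KO 1 and KO 2 libraries it was -0.39 to 0.15 and 0.12 to 0.91. The sums of both lists overlapped between the 3 libraries and the 6. The part of these differences in the results below was not tested, and results are therefore given for all 9 libraries and for the 6 libraries of the WT, KO 1 and KO 2 embryos. In bulk RNA, fewer cells of a type and less RNA per cell cannot be told apart.

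In WT control the 84 genes together held 0.681% of all counts. Per kilobase of exon, the highest level was that of Atp5b, the catalytic beta subunit of ATP synthase, at 766 CPM per kb, followed by Cox4i1, the common form of complex IV subunit 4, at 480 CPM per kb, and Atp5g3, a gene of the membrane c ring, at 371 CPM per kb. Cox6a1 and Cox8a, small membrane subunits of complex IV, followed at 340 and 328 CPM per kb. With 1 WT library, the order of neighbours in this list has no replicate check. At the other end, Ndufs5, Cox7b2, Cox8b and Cox8c did not pass the filter on low counts and were not tested. Ndufs5 had 0 or 1 count in every library and has a near-identical copy elsewhere in the genome. Cox7b2, Cox8b and Cox8c, paralogs known from testis or muscle, had at most 3, 6 and 2 counts.

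With doxorubicin, more members were higher than lower over all 9 libraries and over the 6. Complex IV had the highest median of the complexes. Neither held with RUVg, which removes 1 factor estimated from control genes. These controls were all genes tested except the 5000 with the smallest p over doxorubicin and genotype. Over 9 libraries 6760 genes passed with doxorubicin, so the controls include some of them. Whether the factor holds part of the doxorubicin change was not tested. A correction for exon length over 9 libraries left 4 members higher and 5 lower. Over all 9 libraries, 9 of the 80 members tested were higher and 3 were lower at an adjusted p under 0.01 (edgeR quasi-likelihood test with genotype in the model, Benjamini-Hochberg over 16656 genes). These are 11.2% and 3.75% of the members, and over all genes tested 21.9% were higher and 18.7% lower, so neither share of members exceeded the background. The median log2 fold change was 0.32 over the members and 0.02 over all genes. Over the 6 libraries of WT, KO 1 and KO 2, 53 members were higher and 5 lower, against 35.1% and 31.4% of all 15442 genes tested, and the median was 0.63 over the members and 0.07 over all genes. The 9 higher and 3 lower members of the larger fit were all among those called in the smaller. With the embryo as a block in place of genotype, 39 members were higher and 4 lower over the 8 paired libraries, against 30.1% and 27% of all genes. The block within the 6 libraries gave 59 higher and 6 lower, against 39.3% and 35.5%. DESeq2 over 9 libraries called 14 and 3 members, against 27.1% and 22.3% of all genes. Leaving out KO 3 control alone gave 41 higher and 5 lower, against 31.4% and 27.5%. RUVg over 9 libraries gave 13 higher and 14 lower, against 29.4% and 28.3% of all genes, with 40 of 80 members above 0 and a median of -0.0079. The CPM of treated and control libraries did not overlap for 13 higher and 5 lower members over 9 libraries, against 24.9% and 21.5% of all genes, and for 59 and 6 members over 6 libraries, against 41.5% and 34.7%.

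**Figure D1:**
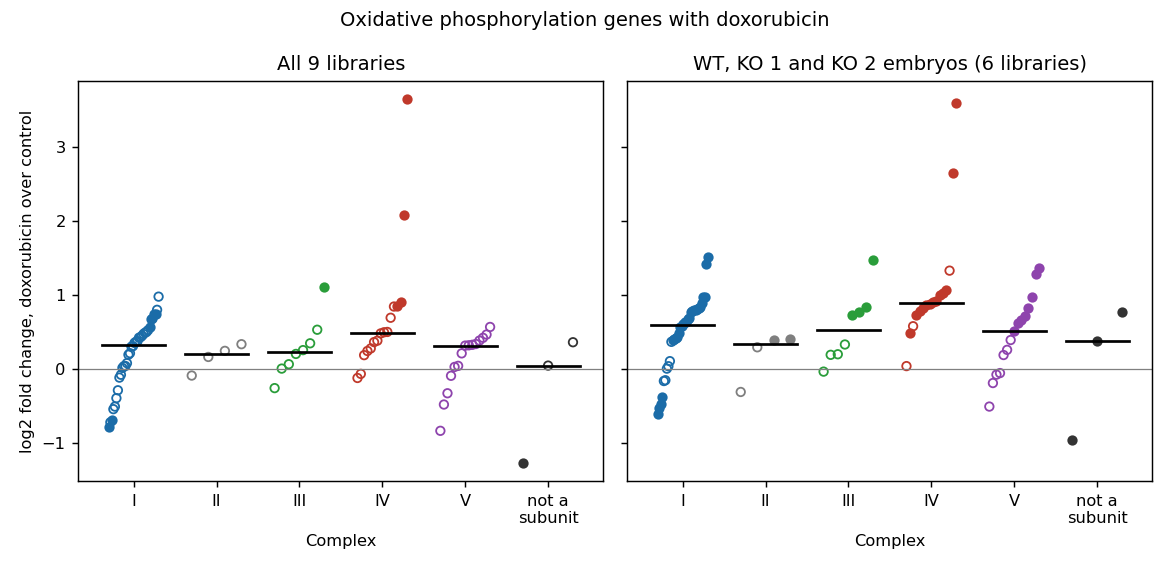
log2 fold change with doxorubicin for each of the 80 genes tested, grouped by complex on the x axis, over all 9 libraries (left) and over the 6 libraries of the WT, KO 1 and KO 2 embryos (right). Filled points passed an adjusted p under 0.01, open points did not, and bars are medians, which for complex IV lie at 0.49 and 0.90.

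By complex, the median log2 fold change over 9 libraries was 0.34 in complex I, 0.21 in complex II, 0.23 in complex III, 0.49 in complex IV and 0.32 in complex V. In the 6 libraries the medians were 0.60, 0.35, 0.54, 0.90 and 0.52. With RUVg they were -0.0079, 0.33, -0.0738, 0.13 and -0.12, so that complex II was then highest. The summed CPM of the 19 complex IV genes was 1475, 1502 and 1450 in WT, KO 1 and KO 2 control and 2816, 2813 and 2825 in the same embryos with doxorubicin. These 3 embryos gave nearly the same sum within a treatment, with no overlap between treatments. The sum was 2806 CPM in Het control and 3269 in KO 3 control, both untreated, and 3600 in Het doxorubicin. Untreated Het and KO 3 were thus as high as the treated WT and KO libraries. The complex II sum behaved differently, at 551, 394, 687, 549.7 and 416 CPM in WT, Het, KO 1, KO 2 and KO 3 control and 585, 346, 747 and 545 CPM in WT, Het, KO 1 and KO 2 with doxorubicin, so its treated and control libraries overlapped.

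**Figure D2:**
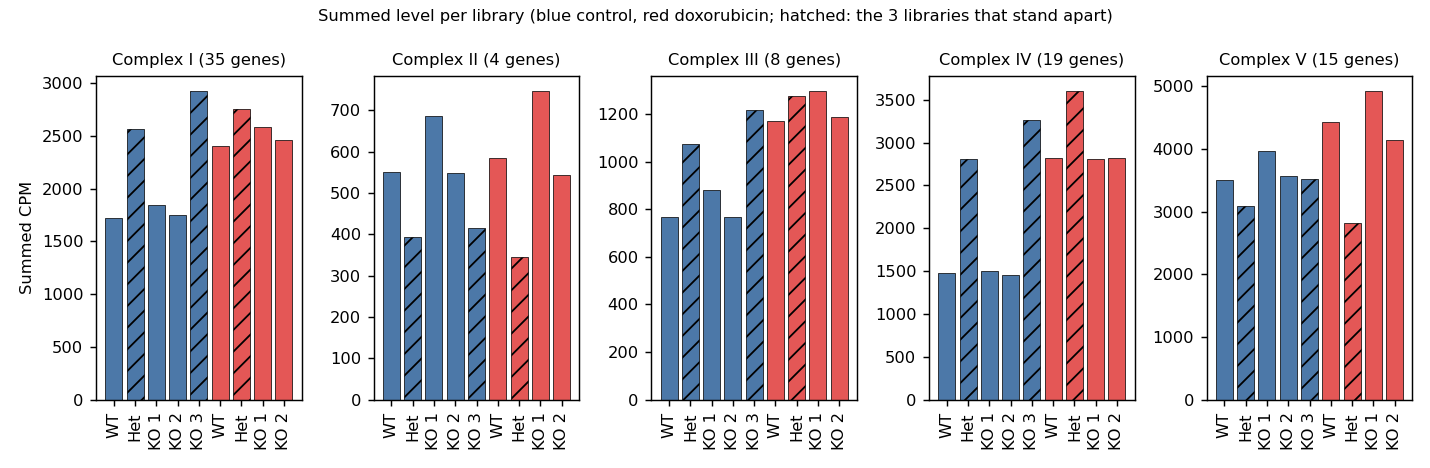
Summed CPM (y axis, from 0) of the genes of each complex in every library (x axis), blue for control and red for doxorubicin, with the 3 libraries that stood apart hatched. For complex IV the WT, KO 1 and KO 2 libraries lie at 1450 to 1502 CPM in control and 2813 to 2825 CPM with doxorubicin, and the untreated Het and KO 3 libraries at 2806 and 3269 CPM.

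The promoters of members that rose or fell are shown to place the letters that factors of respiration are known to bind. RefSeq start sites on GRCm38.p6 gave 75 promoters for 69 of the 84 genes, 3 of them matched through a synonym, each from 250 bases before to 50 bases after the start. Searched on both strands were the NRF1 letters (GCGC and TGCGC with any 1 base between them), the letters CCGGAAG for ETS factors such as GABPA, and GCCATNTT for YY1. The first was found in 18 of 75 member promoters (24%) and in 4.60% of all 32851 promoters in the table, the second in 16 (21.3%) and 8.86%, and the third in 19 (25.3%) and 6.05%. At least 1 of the 3 was found in 61.3% of member promoters and 17.4% of all. Members that were higher in the 6 libraries held at least 1 of the 3 in 59.2% of 49 promoters. Those not called held at least 1 in 61.9% of 21, with the untested Ndufs5, Cox7b2 and Cox8b among them. Those that were lower held at least 1 in 4 of 5 promoters, in all 4 the YY1 letters, which 22.4% of the promoters of higher members held. These 4 are both promoters of Atp5sl, which is not counted as a subunit, and those of Ndufb10 and Ndufs7. By complex, the share with at least 1 was 66.7% of 33 promoters in complex I, 3 of 3 in complex II, 3 of 5 in complex III, 30.8% of 13 in complex IV and 70.6% of 17 in complex V. Capitals mark the matches below. The first 4 belong to genes that rose over 9 libraries or, for Ndufa11, over 6, in the order Uqcrh (chr4:116075021-116075320, minus strand), Cox8a (chr19:7217567-7217866, minus), Cox6a1 (chr5:115348909-115349208, minus) and Ndufa11 (chr17:56717512-56717811, plus). The fifth belongs to Cox6b2 (chr7:4753045-4753344, minus), with a large rise and no match, and the last to Ndufs7 (chr10:80249199-80249498, plus), which fell.
Uqcrh: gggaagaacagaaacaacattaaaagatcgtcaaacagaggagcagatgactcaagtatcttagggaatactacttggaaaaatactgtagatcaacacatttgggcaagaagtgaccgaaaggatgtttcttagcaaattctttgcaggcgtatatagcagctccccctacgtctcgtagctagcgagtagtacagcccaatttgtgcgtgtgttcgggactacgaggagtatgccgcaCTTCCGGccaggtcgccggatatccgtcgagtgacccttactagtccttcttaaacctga
Cox8a: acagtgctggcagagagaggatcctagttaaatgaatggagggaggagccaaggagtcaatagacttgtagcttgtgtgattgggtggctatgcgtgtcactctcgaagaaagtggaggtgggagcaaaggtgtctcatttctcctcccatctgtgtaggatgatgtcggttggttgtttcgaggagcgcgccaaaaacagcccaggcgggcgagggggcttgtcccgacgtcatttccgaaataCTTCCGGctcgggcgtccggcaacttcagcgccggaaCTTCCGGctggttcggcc
Cox6a1: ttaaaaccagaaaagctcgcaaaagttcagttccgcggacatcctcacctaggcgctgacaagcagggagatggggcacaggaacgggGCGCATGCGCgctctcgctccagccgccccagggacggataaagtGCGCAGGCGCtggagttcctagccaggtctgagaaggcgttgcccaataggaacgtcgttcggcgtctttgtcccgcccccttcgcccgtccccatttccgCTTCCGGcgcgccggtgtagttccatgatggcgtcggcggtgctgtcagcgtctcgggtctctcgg
Ndufa11: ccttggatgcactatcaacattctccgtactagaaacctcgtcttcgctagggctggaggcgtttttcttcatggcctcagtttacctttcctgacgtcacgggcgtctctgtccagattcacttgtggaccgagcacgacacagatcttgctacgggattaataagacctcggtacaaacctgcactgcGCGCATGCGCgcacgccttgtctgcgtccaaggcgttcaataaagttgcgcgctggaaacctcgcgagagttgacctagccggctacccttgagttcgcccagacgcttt
Cox6b2: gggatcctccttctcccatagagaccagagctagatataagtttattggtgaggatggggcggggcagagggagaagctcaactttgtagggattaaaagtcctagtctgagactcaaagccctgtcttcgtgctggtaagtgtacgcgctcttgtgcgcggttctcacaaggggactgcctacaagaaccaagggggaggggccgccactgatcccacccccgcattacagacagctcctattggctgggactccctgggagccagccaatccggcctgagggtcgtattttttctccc
Ndufs7: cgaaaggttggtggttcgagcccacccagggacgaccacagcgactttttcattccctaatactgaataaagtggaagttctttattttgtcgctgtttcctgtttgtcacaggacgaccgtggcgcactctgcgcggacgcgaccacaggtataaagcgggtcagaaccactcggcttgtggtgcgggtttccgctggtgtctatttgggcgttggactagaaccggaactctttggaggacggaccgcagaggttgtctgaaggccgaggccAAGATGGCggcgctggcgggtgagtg

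Uqcrh and Cox8a hold the ETS letters next to the start, at -10 in Uqcrh and at -5 and 32 in Cox8a, counted from the start site to the first base of the match. Cox6a1 holds the NRF1 letters at -162 and -117 and the ETS letters at -16, and Ndufa11 holds the NRF1 letters at -60. Ndufs7 holds the YY1 letters at 24. A match describes the letters in the window and is not a measured binding site, and in Cox6b2 the letters searched for were not in these 300 bases.

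Complex I holds core and accessory subunits. The 7 core subunits in the table carry the path of electrons from NADH to ubiquinone, and the accessory subunits surround them. Over the WT, KO 1 and KO 2 embryos, 23 of 27 accessory subunits tested were higher, against 35.1% of all genes, and 1 was lower, with a median of 0.68, whereas 1 of 7 core subunits was higher (Ndufs1) and 3 were lower (Ndufs7 and Ndufv2 among them), with a median of -0.16. Over all 9 libraries the medians were 0.38 and -0.28. There 4 accessory subunits were higher and 1 lower, and 1 core subunit was lower, against 21.9% and 18.7% of all genes. With the exon-length correction described below, 8 of 27 accessory subunits were higher and 2 lower in the 6 libraries, with a median of 0.23. Over all genes 31.8% were then higher and 33.2% lower. The accessory genes had a median exon length of 875 bp and the core genes of 1623 bp. The difference between the kinds of subunit was not tested.

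Ndufs7, a core subunit with an iron-sulfur cluster, was measured at 33.1, 42.6, 31.4, 32.8 and 45.8 CPM in WT, Het, KO 1, KO 2 and KO 3 control and at 19, 22, 27.4 and 18.4 CPM in WT, Het, KO 1 and KO 2 with doxorubicin. Every treated library was below every control library, and the log2 fold change was -0.78 ± 0.19 (SE, n = 5 control and 4 treated, adjusted p = 0.00733, edgeR). Ndufb10, an accessory subunit, behaved alike, at 58.3 to 84.2 CPM in control with a median of 69.8 and 39.2 to 51.3 CPM with doxorubicin (log2 fold change -0.68 ± 0.16, adjusted p = 0.00693, edgeR). Ndufv2, a core subunit with an iron-sulfur cluster, was also without overlap, at 61.6 to 111 CPM in control and 44.3 to 54.1 CPM with doxorubicin, but did not pass the threshold over 9 libraries (log2 fold change -0.71 ± 0.21, adjusted p = 0.0185, edgeR). In the 6 libraries these 3 genes all passed, with log2 fold changes of -0.61, -0.52 and -0.37.

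Among the accessory subunits, Ndufa11, a subunit of the membrane arm, had the largest rise of complex I. It was measured at 50.6, 132, 52.3, 51.6 and 162 CPM in WT, Het, KO 1, KO 2 and KO 3 control and 141, 262, 148 and 157 CPM in WT, Het, KO 1 and KO 2 with doxorubicin. Untreated KO 3 lay inside the treated range and untreated Het just below it, and the 9-library value did not pass (log2 fold change 0.98 ± 0.35, adjusted p = 0.042, edgeR). Within each embryo the treated library was higher, and in the 6 libraries the log2 fold change was 1.52 ± 0.09 (adjusted p = 2.45e-07, edgeR). Ndufb6, the complex I gene with the highest mean CPM, went from 47, 58.7 and 46.8 CPM to 125, 137 and 149 CPM in WT, KO 1 and KO 2, and from 152 to 285 CPM in Het. Its log2 fold change was 0.80 ± 0.41 over 9 libraries (adjusted p = 0.129, edgeR) and 1.42 ± 0.11 over 6. The exons of Ndufb6 overlap Smim27 on the other strand, and the strand setting of the counting is not given in the sources used here, so its level is uncertain. The 4 complex I members that passed over 9 libraries were Ndufa5, Ndufa8, Ndufa12 and Ndufa13, with log2 fold changes of 0.57 to 0.75, and in all 4 the treated and control libraries did not overlap. None of the 4 passed over 9 libraries with the exon-length correction. They were chosen for the text after their values were seen, and Ndufa12 has a near-identical copy elsewhere.

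Complex II, succinate dehydrogenase, is the only complex with no mitochondrially encoded subunit, and none of its 4 genes passed over 9 libraries (edgeR; 1 had an unadjusted p under 0.05 and DESeq2 called 0). Sdha, the flavoprotein that oxidises succinate, was measured at 284, 132, 367, 274 and 119.6 CPM in WT, Het, KO 1, KO 2 and KO 3 control and at 225, 117, 332 and 199 CPM in WT, Het, KO 1 and KO 2 with doxorubicin. It was lower after treatment in each of the 4 embryos, with a log2 fold change of -0.08 ± 0.32 over 9 libraries and -0.31 ± 0.17 over 6 (adjusted p = 0.841 and 0.134, edgeR), and the sign over 9 libraries turned with other scalings. Sdhb, the iron-sulfur subunit, and the membrane anchors Sdhc and Sdhd had log2 fold changes of 0.17 ± 0.15, 0.34 ± 0.15 and 0.25 ± 0.17. Over the WT, KO 1 and KO 2 embryos Sdhc and Sdhd passed, at 0.40 ± 0.09 and 0.41 ± 0.11 (adjusted p = 0.00249 and 0.0079, edgeR), and Sdhb did not, at 0.30 ± 0.10 (adjusted p = 0.0186, edgeR).

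In complex III, 1 of 8 genes passed over 9 libraries and 4 over 6, all higher, against 21.9% and 35.1% of all genes higher. Uqcrh, the hinge protein next to cytochrome c1, had the largest rise and the highest CPM of the complex. It was measured at 117, 229.8, 141, 126 and 284 CPM in WT, Het, KO 1, KO 2 and KO 3 control and 355, 456, 339 and 379 CPM in WT, Het, KO 1 and KO 2 with doxorubicin. Every treated library exceeded every control library, also with the untreated Het and KO 3 libraries in place, and the rise was 2.16-fold over 9 libraries (log2 fold change 1.11 ± 0.27, adjusted p = 0.00781, edgeR) and 2.79-fold over 6. Uqcrc2, a core protein, was measured at 148 to 176 CPM in control and at 152, 83.8, 172 and 142 CPM with doxorubicin in WT, Het, KO 1 and KO 2. Its low treated value was that of Het, and its log2 fold change was -0.25 ± 0.19 over 9 libraries and -0.03 ± 0.11 over 6 (adjusted p = 0.29 and 0.807, edgeR). In the 6 libraries Uqcrq, Uqcr10, Uqcr11 and Uqcrh were higher, and Uqcrb, Uqcrc1, Uqcrc2 and Uqcrfs1 did not pass.

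Complex IV, cytochrome c oxidase, held 4 of the 9 members that were higher over 9 libraries. These are 25% of its 16 genes tested, against 21.9% of all genes. All 4 are outside the catalytic core, which is encoded by mitochondrial DNA. Cox8a was measured at 180.2, 184, 178, 181 and 183 CPM in WT, Het, KO 1, KO 2 and KO 3 control and 348, 293, 329 and 343 CPM in WT, Het, KO 1 and KO 2 with doxorubicin. Its control libraries differed little, Het and KO 3 included, and the rise was 1.80-fold (log2 fold change 0.85 ± 0.14, adjusted p = 0.00119, edgeR). Cox6a1 was similar, at 179 to 217 CPM in control and 324 to 415 CPM with doxorubicin (log2 fold change 0.91 ± 0.16, adjusted p = 0.00124, edgeR). Cox4i1, the complex IV gene with the highest CPM, was measured at 367, 621, 379.5, 357 and 734 CPM in control and 755, 891, 753 and 769.9 CPM with doxorubicin, in the same order of embryos. The groups did not overlap, with KO 3 control just below the lowest treated library, and the value did not pass (log2 fold change 0.70 ± 0.26, adjusted p = 0.05, edgeR). Over the 6 libraries it was 1.04 ± 0.10 and passed.

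The largest changes of the whole set were in paralogs of complex IV subunits that are known from particular tissues or states. Ndufa4l2, a paralog of Ndufa4 known to be induced by low oxygen, had 5, 4, 5, 3 and 4 counts in WT, Het, KO 1, KO 2 and KO 3 control and 43, 38, 53 and 76 counts in WT, Het, KO 1 and KO 2 with doxorubicin. Every treated library was several times above every control library, and the change was 12.5-fold (log2 fold change 3.65 ± 0.34, adjusted p = 6.36e-05, edgeR), at a level that stayed under 4 CPM. Its exons overlap Shmt2 on the other strand. Cox6b2, the paralog of Cox6b1 best known from testis, was measured at 4.81, 19, 4.97, 5.53 and 15.7 CPM in WT, Het, KO 1, KO 2 and KO 3 control and 28.9, 70.9, 30.2 and 37.9 CPM in WT, Het, KO 1 and KO 2 with doxorubicin. It rose 4.23-fold over 9 libraries (log2 fold change 2.08 ± 0.35, adjusted p = 0.00117, edgeR) and 6.30-fold over 6.

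As a share of the counts of the pair, Cox6b2 took 3.24%, 3.11% and 3.74% in WT, KO 1 and KO 2 control and 10.1%, 10.0% and 12.7% with doxorubicin, and 7.06% and 18.4% in Het control and Het doxorubicin. The share of Ndufa4l2 in its pair with Ndufa4 stayed at 1.26% or less in every library. The other tissue forms stayed rare. Cox4i2, Cox6a2 and Cox7a1 made up at most 0.0938%, 0.998% and 1.27% of their pairs in any library, and none of the 3 passed over 9 or 6 libraries. Their log2 fold changes were 0.37 ± 0.52, -0.12 ± 0.44 and 0.85 ± 0.53. The common partners Cox6b1, Cox7a2, Cox7b and Ndufa4 did not pass over 9 libraries, at 0.51 ± 0.24, 0.28 ± 0.38, -0.06 ± 0.55 and 0.19 ± 0.49, and all 4 passed over 6, at 0.83 to 1.01. Cox7b, for example, was measured at 90.4, 87.5 and 85.6 CPM in WT, KO 1 and KO 2 control and at 171, 163 and 167 CPM with doxorubicin, and at 401 and 490.5 CPM in untreated Het and KO 3.

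**Figure D3:**
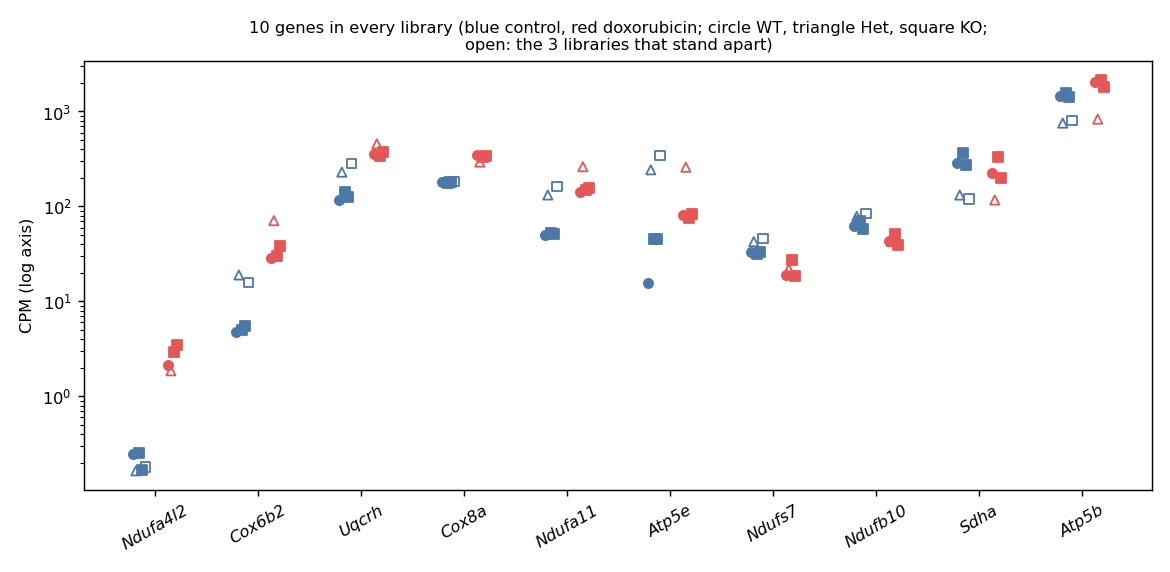
CPM (log axis) of 10 genes in every library, blue for control and red for doxorubicin, circles for WT, triangles for Het and squares for KO, open symbols for the 3 libraries that stood apart. Ndufa4l2, Cox6b2, Uqcrh and Cox8a have no treated library below a control library, Ndufs7 and Ndufb10 none above, and in Atp5e the open control symbols (243 and 342 CPM) lie above the filled treated ones (75.5 to 83.1 CPM).

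In complex V no member passed over 9 libraries with edgeR, where 2 had an unadjusted p under 0.05, and DESeq2 called 0. In the 6 libraries 8 of 15 were higher, against 35.1% of all genes. Of the 7 subunits of the peripheral stalk and membrane part, 6 were higher in the 6 libraries, with a median of 0.72. Atp5h, the d subunit of the stalk, had the largest rise over 9 libraries and went from 23.3, 39.7, 23.9, 22.8 and 47.8 CPM in WT, Het, KO 1, KO 2 and KO 3 control to 46.5, 47.3, 43.3 and 48.2 CPM (log2 fold change 0.57 ± 0.25, adjusted p = 0.0775 over 9 libraries, and 0.97 ± 0.10, adjusted p = 1.16e-05 over 6, edgeR). Only KO 3 control overlapped the treated libraries. Atp5b, at 1468, 754, 1578, 1434 and 808 CPM in control and 2020, 831, 2124 and 1790 CPM with doxorubicin, was low in all 3 libraries that stood apart and did not pass over 9 or 6 libraries (log2 fold change 0.47 ± 0.28 and 0.40 ± 0.12, adjusted p = 0.179 and 0.0122, edgeR). The c ring gene Atp5g2, at 0.734 to 2.74 CPM, had the lowest value of the complex (log2 fold change -0.83 ± 0.38, adjusted p = 0.0936, edgeR). Atp5g2 has 2 near-identical copies elsewhere in the genome and Atp5h has 1. Their reads could be lost or shared, which was not tested. Outside the complexes, Atp5sl was lower, at 6.55 to 13.4 CPM in control and 3.21 to 4.65 CPM with doxorubicin (log2 fold change -1.27 ± 0.27, adjusted p = 0.00412, edgeR).

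Atp5e, the epsilon subunit of the central stalk (chr2:174461072-174464105, minus strand, mm10, with 421 bp of exon), was the member that differed most between untreated embryos. Control libraries of WT, Het, KO 1, KO 2 and KO 3 held 317, 5918, 895, 806 and 7605 counts of it, or 15.7, 243, 45.8, 45 and 342 CPM. With doxorubicin it was measured at 81.7, 259, 75.5 and 83.1 CPM in WT, Het, KO 1 and KO 2. The treated WT, KO 1 and KO 2 libraries were close to each other, while the untreated WT library was the lowest of all 9. The log2 change within an embryo was 2.37 in WT, 0.09 in Het, 0.72 in KO 1 and 0.88 in KO 2. Over 9 libraries the log2 fold change was 0.03 ± 0.79 (adjusted p = 0.974, edgeR) and over 6 libraries 1.29 ± 0.26 (adjusted p = 0.00121, edgeR). The difference between KO and WT in the change, an interaction term, was -3.23 ± 1.81 over 9 libraries (adjusted p = 1, edgeR) and -1.58 ± 0.22 with the embryo as a block and KO 3 left out (adjusted p = 4.3e-09, edgeR, with 1 residual degree of freedom). That difference rests on the single WT control library.

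KO and WT did not differ in any member at the threshold. Over 9 libraries, 0 of 80 members passed in KO against WT and 0 had an unadjusted p under 0.05 (edgeR), against 0% of all genes past the threshold and 0.69% at an unadjusted p under 0.05; DESeq2 also called 0 members, against 0.018% of all genes. The member with the smallest p was Ndufc2, at 40.6 CPM in WT and 50.8, 46.5 and 98 CPM in KO 1, KO 2 and KO 3 control, and 67.7, 72.2 and 72.1 CPM in WT, KO 1 and KO 2 with doxorubicin (log2 fold change 0.39 ± 0.31, adjusted p = 1, edgeR). Only KO 3 among the KO control libraries was far from WT. Over the 6 libraries 0 members passed, against 0.0194% of all genes, and 1 (Atp5e) had an unadjusted p under 0.05, against 4.39%, and the median log2 difference was 0.06. WT has 1 embryo, so these tests take the spread from the other libraries. The interaction of KO and doxorubicin gave 0 members past the threshold over 9 libraries, with 0 at an unadjusted p under 0.05 (0.348% of all genes) and 0 by DESeq2, and 0 over 6 libraries, and 1 with the embryo as a block (Atp5e), where 0.0483% of all genes passed.

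Het against WT gave 0 members past the threshold over 9 libraries (edgeR), with 9 at an unadjusted p under 0.05, against 0% of all genes past the threshold and 23.6% at an unadjusted p under 0.05; DESeq2 called 0 members, against 1.02% of all genes. Cox6b2 had the smallest p (log2 fold change 1.60 ± 0.52, adjusted p = 0.2, edgeR), and 7 of the 9 were lower in Het (Ndufa5, Ndufa9, Ndufa10, Ndufs1, Ndufv1, Atp5a1 and Atp5b). Without KO 3 control, 23 members passed, against 19.7% of all genes. Untreated Het over WT had a median log2 ratio of 0.65 over the 80 members, and untreated KO 3 over WT had 0.81, whereas KO 1 and KO 2 over WT had 0.08 and 0.01. A KO embryo thus differed from WT as much as the Het embryo did, and with 1 Het embryo the genotype and the embryo cannot be told apart. By complex, the median log2 ratio of untreated Het over WT was 0.56 in complex I, -0.13 in complex II, 0.65 in complex III, 0.82 in complex IV and 0.60 in complex V.

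The median log2 change over the 80 members was 0.68 in WT, 0.61 in KO 1 and 0.63 in KO 2, with 68, 67 and 66 members higher, and 0.11 in Het, with 48 higher. The Het arm is 1 embryo, both of whose libraries stood apart. With the embryo as a block, in a fit with 1 residual degree of freedom, the interaction of Het and doxorubicin was below 0 at an adjusted p under 0.01 for 11 members, 13.8% of those tested, against 4.26% of all genes (edgeR), the largest in Atp5e (-2.29 ± 0.25), Cox7b (-1.08 ± 0.23) and Atp5c1 (-0.98 ± 0.23). Over 9 libraries without the block 0 members passed (0% of all genes), and 0 had an unadjusted p under 0.05 (1.62% of all genes), and DESeq2 called 0.

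The change with doxorubicin over the 6 libraries and the difference of Het and KO 3 from WT both went with the exon length of a gene. Exon length is the sum of the bases of a gene covered by its exons in GENCODE on GRCm38, the build of the files. It joins the exons of all listed transcripts of a gene, so it can exceed the length of any 1 transcript. Members were short, with a median of 977 bp, against 3159 bp over all genes tested. Among all genes tested, the median log2 ratio of untreated Het over WT was 1.22 for the 255 genes of up to 500 bp, 0.46 at 1001 to 1500 bp and -0.30 above 8000 bp, and that of KO 3 over WT was 1.46, 0.55 and -0.46. KO 1 over WT stayed between -0.06 and 0.02 in all length ranges. The 5 members of up to 500 bp had medians of 1.14 in Het and 1.42 in KO 3, near those of all genes of that length. In the longer ranges the member medians lay further from those of all genes, but in both directions, and the last 2 ranges hold only 4 and 2 members. The 16 at 1501 to 2500 bp had 0.45 and 0.71, against 0.19 and 0.21 for all genes. The 4 at 2501 to 4000 bp had -0.90 and -0.89, against 0.01 and 0. The 2 at 4001 to 8000 bp had 0.90 and 1.11, against -0.20 and -0.27. Of all 80 members, 39 in Het and 41 in KO 3 lay above the median of other genes of similar exon length.

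**Figure D4:**
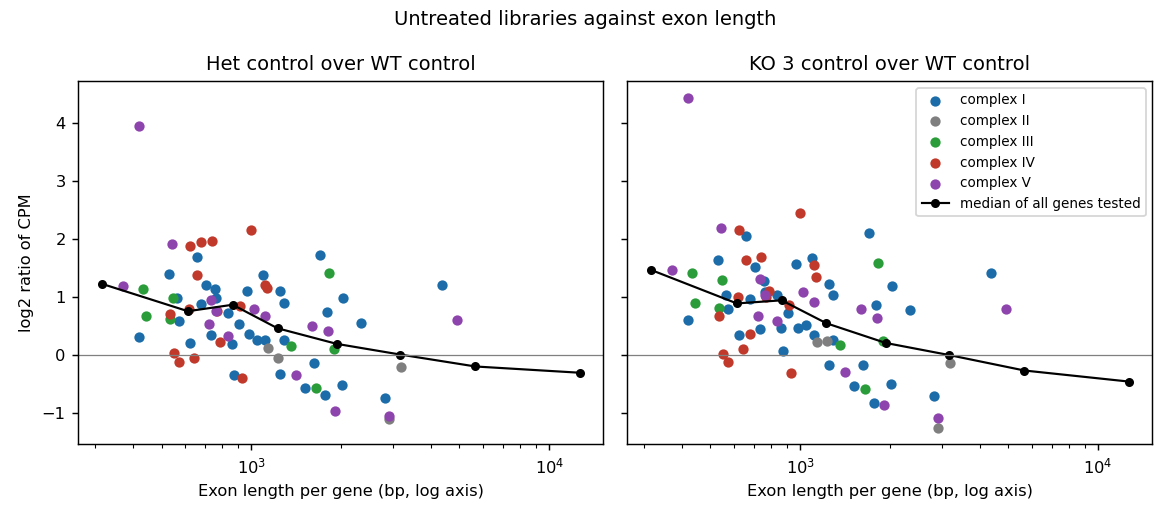
log2 ratio of CPM in untreated Het over WT (left) and untreated KO 3 over WT (right) for the tested members of complexes I to V, against exon length in bp on a log axis. The line joins medians of all genes tested by length range, which fall from 1.22 to -0.30 in Het and from 1.46 to -0.46 in KO 3.

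Over the WT, KO 1 and KO 2 embryos, the median log2 fold change with doxorubicin over all genes tested was 0.65 at up to 500 bp, 0.87 at 501 to 750 bp, 0.61 at 751 to 1000 bp, 0.42 at 1001 to 1500 bp, 0.30 at 1501 to 2500 bp and -0.51 above 8000 bp. For members in the first 5 of these ranges it was 0.82, 0.85, 0.73, 0.57 and 0.20. Over 9 libraries the median of all genes was -0.44 at up to 500 bp, 0.57 at 501 to 750 bp and -0.35 above 8000 bp. The shortest range there did not follow the fall with length. Across the 80 members, Spearman's rho between exon length and log2 fold change was -0.51 over the 6 libraries and -0.36 over 9. Over all genes tested it was -0.22 and -0.13. These values describe genes that share the libraries and differ in level. Set beside the other genes within 10% of its exon length, a member was above their median in 38 of 80 cases over the 6 libraries, and the median distance was -0.05. By complex that distance was 0.21 in complex IV, -0.01 in complex I, -0.10 in complex II, -0.22 in complex III and -0.06 in complex V. By this measure the members as a group changed about as much as other genes of their length, and over 9 libraries 31 of 80 lay above that median. The part of exon length in the result was not tested.

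**Figure D5:**
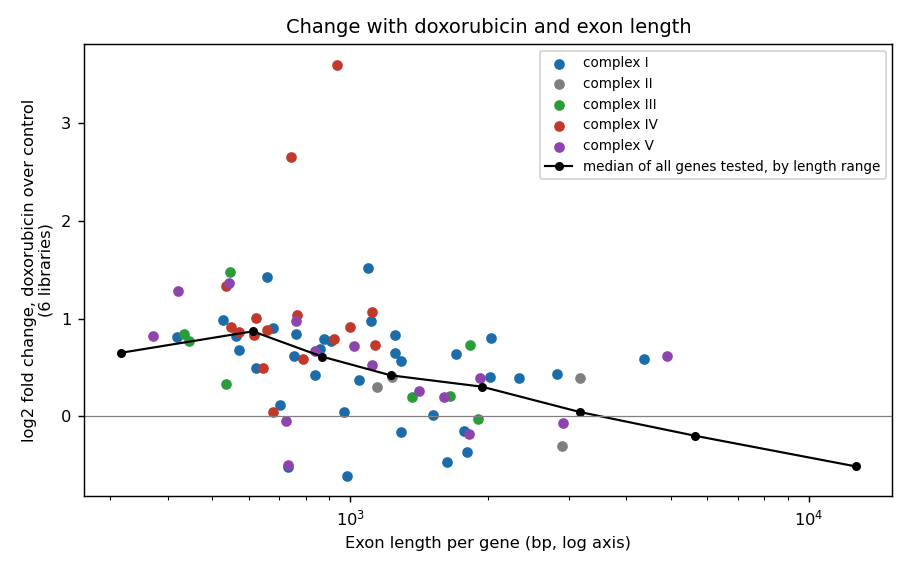
log2 fold change with doxorubicin over the 6 libraries of WT, KO 1 and KO 2 (y axis) against exon length in bp (log axis) for the tested members of complexes I to V. The line joins the medians of all genes tested by length range, 0.87 at 501 to 750 bp and -0.51 above 8000 bp, and most members lie around it, with Ndufa4l2 and Cox6b2 far above.

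A smooth curve of exon length was removed from each library as an alternative chosen after the data were seen. Over 9 libraries 4 members were then higher and 5 lower, against 21.7% and 21% of all genes. The median was then 0.13 over the members and -0.03 over all genes. Of the 9 members that were higher without it, 3 kept the call, and Cox6a1, Cox8a, Ndufa5, Ndufa8, Ndufa12 and Ndufa13 lost it. Over the 6 libraries 20 members were higher and 10 lower, against 31.8% and 33.2% of all genes. The median there was 0.18 over the members and -0.01 over all genes. All 20 were among the 53 higher members without that correction. Ndufa4l2, Cox6b2, Ndufa11, Ndufb6 and Uqcrh passed at log2 fold changes of 3.16, 2.11, 1.13, 0.84 and 0.83. Cox8a and Cox6a1 did not pass, at 0.26 and 0.23 (adjusted p = 0.0234 and 0.0551, edgeR). Ndufs7 and Ndufb10 passed as lower, at -1.03 and -1.06, and 5 of the 7 core subunits of complex I were lower.

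Further genes of the pathway that the symbol rule leaves out were read beside the members. Cycs, the soluble cytochrome c that links complexes III and IV, was measured at 2.73, 4.27, 3.07, 3.63 and 4.95 CPM in WT, Het, KO 1, KO 2 and KO 3 control and 9.35, 8.71, 9.01 and 8.9 CPM in WT, Het, KO 1 and KO 2 with doxorubicin, without overlap (log2 fold change 1.29 ± 0.24, adjusted p = 0.0018, edgeR). Cyc1, cytochrome c1 of complex III, was lower in each embryo and did not pass (log2 fold change -0.55 ± 0.17, adjusted p = 0.0233, edgeR). Ndufab1, the acyl carrier protein of complex I, and Atpif1, an inhibitor of ATP synthase, did not pass (log2 fold changes -0.07 ± 0.22 and 0.27 ± 0.37). Over the 6 libraries Atpif1 passed, at 0.84 ± 0.11. There 4 of these 6 genes were higher and 1 lower, against 35.1% and 31.4% of all genes.

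The assembly factors build the complexes without remaining in them. Of 40 tested over 9 libraries, 2 were higher and 8 (20%) lower, against 21.9% and 18.7% of all genes, with a median of -0.50. Coa7, a factor of complex IV, fell from 7.64 to 11.3 CPM in control to 1.19 to 2.01 CPM (log2 fold change -2.70 ± 0.29, adjusted p = 0.000116, edgeR). Ndufaf4, a factor of complex I, was measured at 15.7 to 36.8 CPM in control and 3.5 to 4.18 CPM with doxorubicin (log2 fold change -2.53 ± 0.31, adjusted p = 0.000218, edgeR). The factor with the largest increase was Atpaf2, for the head of ATP synthase, at 18.5 to 23.2 CPM and 33.4 to 40 CPM (log2 fold change 0.75 ± 0.13, adjusted p = 0.0013, edgeR). In the 6 libraries 6 assembly factors were higher and 11 (27.5%) lower, against 35.1% and 31.4% of all genes, with a median of -0.17. The difference from the subunits was not tested.

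Of 15 regulators of mitochondrial biogenesis and mitochondrial DNA, 1 was higher and 5 lower over 9 libraries, against 21.9% and 18.7% of all genes. Over 6 libraries 3 were higher and 5 lower, against 35.1% and 31.4%. Pprc1, a coactivator related to Ppargc1a, fell from 82.3 to 129 CPM to 25.6 to 30.3 CPM (log2 fold change -1.97 ± 0.19, adjusted p = 6.61e-05, edgeR). Nrf1, a transcription factor known to act on many genes of respiration, fell from 19.8 to 30.9 CPM to 7.78 to 15.2 CPM (log2 fold change -1.26 ± 0.25, adjusted p = 0.00253, edgeR). Polg2, the accessory subunit of the mitochondrial DNA polymerase, rose from 1.79 to 3.46 CPM to 12.1 to 29.6 CPM (log2 fold change 2.55 ± 0.27, adjusted p = 0.000101, edgeR), and Mterf1a, a termination factor, had the largest fall of the list (log2 fold change -2.38 ± 0.50, adjusted p = 0.00376, edgeR). Gabpa, Esrra and Tfam did not pass (log2 fold changes 0.00 ± 0.22, 0.09 ± 0.22 and -0.52 ± 0.16). Ppargc1a stayed at or below 2.42 CPM in all libraries and did not pass over 9 libraries (log2 fold change 1.07 ± 0.78, against 2.36 ± 0.55 and a pass over 6).

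Other groups of genes are given for comparison, with no test of a difference from the members. Over all genes 21.9% were higher and 18.7% lower over 9 libraries, and 35.1% and 31.4% over 6. Of 77 mitochondrial ribosomal protein genes, 2 were higher and 21 lower over 9 libraries, and 17 and 25 over 6, with medians of -0.33 and -0.19. Of 84 cytoplasmic ribosomal protein genes tested, 1 was higher and 1 lower over 9 libraries and 51 and 1 over 6, with medians of 0.14 and 0.50, values close to those of the members over the 6 libraries, and their symbols take reads from many copies. Of 40 proteasome genes, 3 were higher and 8 lower over 9 libraries. Of 14 genes of the tricarboxylic acid cycle, 1 was higher (Fh1, log2 fold change 0.63 ± 0.16, adjusted p = 0.00988, edgeR) and 0 lower over 9 libraries, with 3 and 2 in these directions at an unadjusted p under 0.05 and 2 and 2 called by DESeq2. Of 13 glycolytic genes tested, 0 were higher (edgeR; 4 at an unadjusted p under 0.05 and 2 by DESeq2) and 3 lower, of which Gapdh, with many copies in the genome, had the largest fall and Hk2 followed (log2 fold changes -1.86 ± 0.48 and -1.32 ± 0.16). Among the other lists read over 9 libraries, p53 targets had 0 of 8 past the threshold and 2 lower at an unadjusted p under 0.05 (edgeR; DESeq2 called 2 lower), and fibroblast, endothelial, muscle, neural and adipocyte markers had 0, 2, 1, 0 and 1 higher and 1, 0, 0, 2 and 0 lower. Macrophage markers had 1 higher and 1 lower (Cd68 and Csf1r), and interferon-stimulated genes 0 in either direction over 9 libraries (also 0 at an unadjusted p under 0.05 and by DESeq2) and 9 of 10 higher over the 6.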

How the data were processed

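RNA-Seq counts per gene were analysed for MEFs of 3 Sall2 genotypes with and without doxorubicin. The deposited table holds raw read counts, which the authors made from rRNA-depleted stranded libraries, each sequenced in 4 runs, with HISAT2 (2.1.0 in the submitters' processing notes) and HTSeq in union mode on mm10 genes. The strand setting is not given in the sources used here. A gene with near-identical copies loses or shares reads in such counting, and 16 of the 84 members had at least 1 copy (97% identity or more over 150 bp or more). There were 0 columns without a sample, and 1 column identical to another was left out.

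Counts were tested with edgeR 4.0.16 in R 4.3.3 (TMM factors, filterByExpr, quasi-likelihood test, genotype plus treatment, 9 libraries) at an adjusted p under 0.01 over all genes tested. The standard error is the log2 fold change divided by the square root of F, and log2 CPM used a prior count of 2. WT and Het have 1 library per treatment, so p-values rest on the spread over all these libraries. KO replicate numbers are shared between treatments, and the difference between KO 1 and KO 2 in control correlated with that with doxorubicin (r = 0.35 over 16325 genes), so the embryo was also fitted as a block. DESeq2 1.42.0, other scalings, RUVg, left-out libraries and a correction for exon length (spline with 6 degrees of freedom on GENCODE vM21 exon lengths, chosen after seeing the data) were alternatives, as was the set of 6 libraries. Scripts were tested on simulated data.

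Members and lists were chosen with earlier results of these data known. The genes named were, in each complex and at a mean of at least 1 CPM, those with the largest increase, the largest decrease and the highest CPM, the member with the smallest p in each genotype comparison and the interaction, Atp5e, both members of each isoform pair, the 4 Sdh genes and the members not tested. Outside the members they were Ndufab1, Cyc1, Cycs, Atpif1, Ppargc1a, Nrf1, Gabpa, Esrra, Tfam and the extremes of each list. Ndufa5, Ndufa8, Ndufa12, Ndufa13, Ndufb10, Ndufv2, Atp5sl, Pprc1, Ndufaf4 and the other genes outside this rule were named after their values were seen. 1 member is not reported here by name.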

Additional observations from a re-analysis of the deposited data

Results flagged for a closer look

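In 4 genes the Het embryo moved against the WT, KO 1 and KO 2 embryos with doxorubicin. They were picked out by these opposite signs, which were not tested. The log2 ratio of doxorubicin over control in Het was -0.0537 for Sdhc, -0.15 for Cox7b, -0.19 for Sdhb and -0.26 for Sdhd. In WT, KO 1 and KO 2 it was 0.41, 0.47 and 0.33 for Sdhc, 0.92, 0.89 and 0.96 for Cox7b, 0.44, 0.25 and 0.23 for Sdhb, and 0.44, 0.41 and 0.40 for Sdhd. With the embryo as a block, the interaction of Het and doxorubicin passed the threshold for Cox7b (adjusted p = 0.000152, edgeR) and did not for Sdhd, Sdhb and Sdhc (adjusted p = 0.0215, 0.0427 and 0.175, edgeR). Both Het libraries are among those that stood apart.

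For Atp5e the change with doxorubicin was smaller in KO than in WT by -1.58 on the log2 scale with the embryo as a block, which passed the threshold, and its untreated WT library was the lowest of the 9.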

How the results depend on the processing

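The number of members called with doxorubicin depended on the libraries and the fit. Against 9 higher members, DESeq2 gave 14, upper-quartile scaling 14, RUVg 13, a threshold of 0.05 14, the replicate block 39, KO libraries alone 1, the exon-length correction 4, the 6 libraries 53, and within those 6 the exon-length correction 20, the block 59 and DESeq2 58. Leaving out 1 library at a time gave 3 (without WT control) to 41 (without KO 3 control). Against 3 lower members, upper-quartile scaling, library totals, totals without Rn45s and KO libraries alone gave 0, RUVg 14, a threshold of 0.05 5, the exon-length correction 5, the 6 libraries 5, and within those 6 the exon-length correction 10, the block 6 and DESeq2 5, with 0 to 5 when 1 library was left out. With RUVg the 13 higher and 14 lower members had a median log2 fold change of -0.0079, against 0.32. Het against WT in doxorubicin libraries alone, with 1 library of each, had a median log2 fold change of 0.09 over the members and 0.06 over all genes. When 1 library was left out it gave 0 to 23 members. The 23 were without KO 3 control, where 19.7% of all genes passed. The interaction of KO and doxorubicin gave 1 with the replicate block, also in the 6 libraries. KO against WT gave 0 members in every alternative run. The causes were not tested.

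Among single genes the direction with doxorubicin turned as follows. Sdha was 0.12 with upper-quartile scaling, 0.0346 with library totals and 0.0315 without Rn45s, 0.62 with RUVg, 0.0895 in KO libraries and -0.30 to 0.0841 when 1 library was left out. Cox7b was 0.0027 with DESeq2, 0.10 with upper-quartile scaling, 0.65 with the replicate block, 0.92 in the 6 libraries with or without the block, 0.50 there with the exon-length correction, 0.96 there with DESeq2, and -0.34 to 0.65 when 1 library was left out. Atp5e was -0.0441 with library totals and -0.0422 without Rn45s, -0.96 with RUVg, -0.86 in KO libraries and -0.58 to 0.98 when 1 library was left out. Cox6a2 was 0.0762 with upper-quartile scaling, 0.0444 in the 6 libraries, 0.0475 there with the block and 0.0530 with DESeq2, and -0.42 to 0.12 when 1 library was left out. Ndufa4 was -0.58 with RUVg, -0.14 in KO libraries and -0.0563 to 0.79 when 1 library was left out. With RUVg, Ndufc2 was -0.10, Cox4i2 -0.0597 and Cox7a2 -0.35. Sdhb was -0.0368 with the exon-length correction and -0.0747 with it in the 6 libraries, and Uqcrc2 was 0.0079 with DESeq2 in the 6 libraries.

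The median log2 fold change of all genes was 0.02, and 0.21 with upper-quartile scaling. WT and Het have 1 embryo each, so a genotype effect and an embryo effect cannot be told apart there. The interaction could not be estimated without a WT library, and no paired value exists for KO or Het against WT because each embryo has 1 genotype. Cox7b2, Cox8b and Cox8c had too few counts to test at totals of 15560728 to 24122414, and Ndufs5 has a near-identical copy with which its reads could be shared, which was not tested.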
